A study of Mus musculus with 6 samples.

Results

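The cyclic nucleotide phosphodiesterases (PDEs) outside the phototransduction family were followed in retinas of 2-month-old mice. The 10 genes, *Pde1a*, *Pde1c*, *Pde2a*, *Pde3a*, *Pde3b*, *Pde4a*, *Pde4b*, *Pde4d*, *Pde8b* and *Pde10a*, were matched by symbol among the 55421 genes of the count table. The 10 were selected on results of the same *Yap* cKO against control contrast, so their differences are given as a description, without p-values. They belong to the 18 genes of the 10 class I families other than PDE6, the photoreceptor enzyme of phototransduction. Control mice carried floxed *Yap* alleles without Cre (Yapfl/fl; animals YR612, YR613 and YR615). *Yap* cKO mice were Yapfl/fl;RaxCreERT2 (animals YR711, YR713 and YR714), and both groups were given 4OH-T at P10 and P14. In this line Cre is driven from *Rax*, which deletes *Yap* in Müller glia and the non-pigmented ciliary epithelium, and controls had no Cre, so that Cre itself and the loss of *Yap* cannot be told apart. Each animal gave 1 stranded mRNA library, with 3 per group. In whole-retina RNA, a change in the number of cells of a type and a change of RNA per cell cannot be told apart.

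Phosphodiesterases hydrolyse the second messengers cAMP and cGMP, and with the adenylyl and guanylyl cyclases that make them they set how long and how far these signals spread in a cell. PDE4 and PDE8 enzymes hydrolyse cAMP. PDE1, PDE2, PDE3 and PDE10 enzymes accept both nucleotides, and differ in control: PDE1 is activated by calcium and calmodulin, PDE2 is stimulated by cGMP, and cAMP hydrolysis by PDE3 is inhibited by cGMP. In the retina, cGMP carries the light response of rods and cones through PDE6, while cAMP acts downstream of dopamine and other transmitters. YAP is a transcriptional co-activator that reaches DNA through TEAD factors.

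The deletion was visible in the libraries, which held between 24261799 and 35067068 counts assigned to genes. *Yap1* was at 9.48, 9.52 and 9.83 TPM (counts per exonic length, scaled to the same total in each retina) in controls and 3.99, 3.76 and 3.94 TPM in *Yap* cKO retinas, without overlap. Markers of rods summed to 47700 to 54000 TPM over the 6 retinas and those of Müller glia to 5360 to 6230 TPM, so the defining cells of the labelled tissue were present. A trend with gene length set the retinas apart: Spearman's rho across genes between relative expression and exonic length was -0.413, 0.172 and -0.405 in control animals YR612, YR613 and YR615 and 0.396, 0.385 and -0.151 in *Yap* cKO animals YR711, YR713 and YR714. The fold changes of the 10 genes are therefore also given after a correction for length in each retina.

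Since *Pde10a* had the largest fold change of the 10, its promoter windows are shown, with the only *Pde4a* window that holds the letters of the TEAD motif. The *Pde1a* windows that hold them are not shown, and binding by TEAD factors was not measured. The windows hold the bases before a RefSeq transcript start (GRCm38.p6), cut to what lies outside annotated exons, on the strand of the gene and 5′ to 3′. Capitals mark the TEAD letters, CATTCC or its reverse complement GGAATG.
Pde10a, chr17:8801495-8801692, + strand: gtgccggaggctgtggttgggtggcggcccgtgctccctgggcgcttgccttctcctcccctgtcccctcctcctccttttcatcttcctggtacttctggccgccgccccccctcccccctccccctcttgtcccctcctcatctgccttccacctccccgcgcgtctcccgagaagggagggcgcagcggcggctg
Pde10a, chr17:8849735-8849984, + strand: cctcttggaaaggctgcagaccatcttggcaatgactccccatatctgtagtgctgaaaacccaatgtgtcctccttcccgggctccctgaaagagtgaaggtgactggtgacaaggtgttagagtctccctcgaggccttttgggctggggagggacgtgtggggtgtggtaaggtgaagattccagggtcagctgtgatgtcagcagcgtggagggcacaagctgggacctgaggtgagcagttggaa
Pde4a, chr9:21165464-21165713, + strand: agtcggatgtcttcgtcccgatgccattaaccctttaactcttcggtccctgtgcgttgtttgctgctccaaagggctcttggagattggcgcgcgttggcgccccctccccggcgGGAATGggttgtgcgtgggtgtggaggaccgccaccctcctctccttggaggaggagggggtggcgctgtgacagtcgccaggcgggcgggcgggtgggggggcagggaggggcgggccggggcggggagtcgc
The first *Pde10a* window was rich in G and C (72.8% over its full 250 bases, with 21 CpG), the other less so (56.0%, 4 CpG), against a median of 52.4% over all promoters. Neither held the TEAD letters. Both windows lie inside the annotated *Pde10a* gene, and its first annotated base, chr17:8525372, has no window here. Windows were at hand for 8 of the 10 genes, 27 in all, some of them overlapping. Those of *Pde4b*, *Pde4d* and *Pde1c* also all lie inside the annotated gene. The TEAD letters occurred in 3 windows of 2 genes, *Pde4a* and *Pde1a*, and 12.6% of 32851 promoters in the table hold them in the same 250 bases on either strand. The cAMP response element TGACGTCA occurred in 0 of the 27 windows and in 1.55% of all promoters, and its core TGACG or CGTCA, contained in the full element, in 3 windows and in 17.8% of promoters. These are matches of letters only.

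In control retinas the 10 genes spanned a wide range of levels. *Pde8b*, a cAMP-specific enzyme with high affinity for its substrate, was highest at 54.9 ± 3.41 TPM (SD, n = 3), and its retinas did not overlap those of the next gene. It was followed by *Pde4b* (32.8 ± 3.85 TPM), *Pde3a* (28.1 ± 5.44 TPM) and *Pde4a* (25.5 ± 1.24 TPM), where each neighbour in the order overlapped the next. After a gap came *Pde4d* (9.43 ± 2.47 TPM), *Pde1c* (9.05 ± 1.24 TPM) and *Pde1a* (7.43 ± 0.757 TPM), again with overlap between neighbours. *Pde10a* (5.10 ± 0.626 TPM) and *Pde3b* (2.45 ± 0.237 TPM) lay below these without overlap. The level of *Pde2a* was 0.179 ± 0.0585 TPM. Among the 16575 genes tested, *Pde8b* stood at the 79.9th percentile of control levels and *Pde3b* at the 18.1st.

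**Figure D1:**
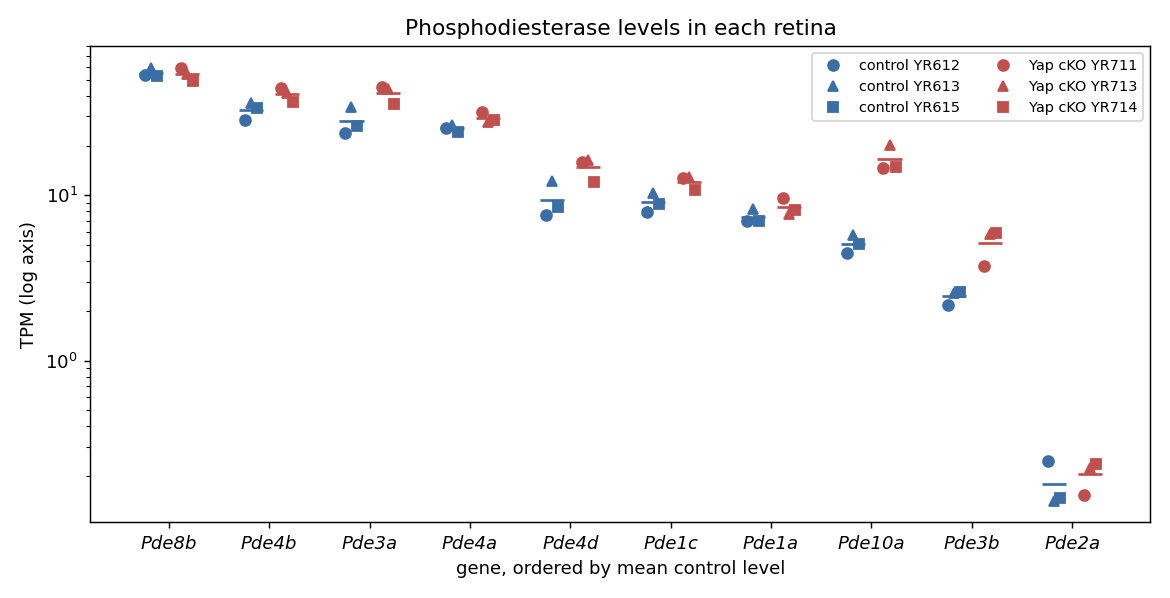
TPM (log axis) of the 10 genes in each of the 3 control (blue) and 3 *Yap* cKO (red) retinas, with genes ordered by mean control level and short lines at the group means. *Pde10a* and *Pde3b* show the widest gap between the groups, while the groups overlap for *Pde8b*, *Pde4d*, *Pde1a* and *Pde2a*.

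*Pde10a*, which encodes an enzyme of both substrates best known from striatal medium spiny neurons, differed most between the groups. It was at 4.48, 5.73 and 5.07 TPM in controls and at 14.6, 20.1 and 14.8 TPM in *Yap* cKO retinas. Every *Yap* cKO retina was far above the highest control retina, and YR713 was the highest of all. The raw counts behind these values were 380, 505 and 501 against 1198, 2246 and 1298. The mean TPM was 3.24 times as high in *Yap* cKO retinas, and the log2 fold change of 1.64 ± 0.135 (SE) ranked 12 from the top among the 16575 genes tested. Corrected for gene length it was 1.43 ± 0.118. With each retina left out, the uncorrected value lay between 1.48 and 1.72 and the corrected one between 1.30 and 1.55. The gene (ENSMUSG00000023868, chr17:8525372-8986648, + strand, GRCm38) has 12849 exonic bases, none of them shared with another gene of the same strand.

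The second gene to differ clearly was *Pde3b*, the cGMP-inhibited enzyme known for lowering cAMP downstream of insulin in fat and liver (ENSMUSG00000030671, chr7:114415281-114539251, + strand, 9114 exonic bases). Its control retinas were at 2.18, 2.58 and 2.60 TPM and its *Yap* cKO retinas at 3.71, 5.86 and 5.89 TPM. All *Yap* cKO retinas were above all controls, but YR711 was nearer to the controls than to the other *Yap* cKO retinas. Its log2 fold change was 1.02 ± 0.187, or 0.91 ± 0.195 when corrected for length. At these counts, between 131 and 465 per retina, the call was lost when any of YR612, YR615, YR713 and YR714 was left out, with log2 fold changes between 0.90 and 1.21 over the 6 fits that leave out a retina.

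*Pde3a*, the paralog prominent in heart, vessels and oocytes (ENSMUSG00000041741, chr6:141249269-141507448, + strand, 12737 exonic bases), was more abundant than *Pde3b* and differed less. It was at 23.7, 34.1 and 26.4 TPM in controls and 45.3, 44.1 and 35.5 TPM in *Yap* cKO retinas. The groups did not overlap, yet control YR613 and *Yap* cKO YR714 were only 34.1 and 35.5 TPM. The log2 fold change was 0.52 ± 0.126, and 0.31 ± 0.0687 when corrected for length. It met the criteria for a call only when YR613 or YR714 was left out.

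The calcium and calmodulin-stimulated members differed less again. *Pde1c* (ENSMUSG00000004347, chr6:56069804-56652487, - strand), which also serves olfactory neurons, was at 7.88, 10.3 and 8.92 TPM in controls and 12.7, 12.9 and 10.7 TPM in *Yap* cKO retinas, or 0.36 ± 0.1 as log2 fold change with its SE. With 20520 exonic bases it was the longest of the 10, and corrected for length its log2 fold change was 0.03 ± 0.0709. *Pde1a* (ENSMUSG00000059173, chr2:79834453-80129458, - strand, 6012 exonic bases) overlapped between control (7.03, 8.30 and 6.95 TPM) and *Yap* cKO retinas (9.58, 7.72 and 8.13 TPM), with a log2 fold change of 0.13 ± 0.118 (0.08 ± 0.111 when corrected for length).

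*Pde2a*, the cGMP-stimulated enzyme, was close to the limit of detection. Its counts were 10, 6 and 7 in controls and 6, 12 and 10 in *Yap* cKO retinas, and it did not pass the filter on low counts. Of its 6149 exonic bases (ENSMUSG00000110195, chr7:101421691-101512827, + strand), 3955 are shared with Gm45837, a gene of the same strand that is listed at 0 counts in all 6 retinas. By the default of the counting program, fragments that overlap both genes are counted for neither, so the level of *Pde2a* may be too low and no comparison was made.

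Among the cAMP-specific members, the PDE4 enzymes are the targets of rolipram and its relatives. *Pde4d* (ENSMUSG00000021699, chr13:108449948-109953461, + strand, 12006 exonic bases) was at 7.59, 12.2 and 8.48 TPM in controls and 15.9, 16.3 and 12.1 TPM in *Yap* cKO retinas. Control YR613 was above *Yap* cKO YR714, so the groups overlapped, and the other 4 retinas were well apart. The log2 fold change was 0.59 ± 0.162, and 0.41 ± 0.101 when corrected for length. *Pde4d* was not called by edgeR's quasi-likelihood test. It was called by edgeR's likelihood ratio test, by DESeq2, without the filter on low counts, without YR613 and without YR714, and by none of the length-corrected fits.

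*Pde4b*, the form tied to immune and inflammatory signalling (ENSMUSG00000028525, chr4:102087543-102607259, + strand, 10560 exonic bases), was at 28.6, 36.1 and 33.7 TPM in controls and 44.4, 41.7 and 36.8 TPM in *Yap* cKO retinas. The groups were separated by less than 1 TPM, and the log2 fold change was 0.26 ± 0.0924 (0.11 ± 0.0668 when corrected for length). *Pde4a* (ENSMUSG00000032177, chr9:21165714-21213248, + strand, 7655 exonic bases) was at 25.5, 26.8 and 24.3 TPM in controls and 31.9, 27.7 and 28.6 TPM in *Yap* cKO retinas. Its groups too were separated by less than 1 TPM, with a log2 fold change of 0.14 ± 0.0805 (0.06 ± 0.0774 when corrected for length).

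*Pde8b*, the most abundant of the 10 (ENSMUSG00000021684, chr13:95024454-95250336, - strand, 5879 exonic bases), was the only tested one with a negative log2 fold change, -0.08 ± 0.0829 (-0.13 ± 0.0710 when corrected for length). It was at 53.5, 58.8 and 52.4 TPM in controls and 59.3, 53.9 and 49.1 TPM in *Yap* cKO retinas, which overlapped.

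In counts, 9 of the 10 genes were tested, 8 with a positive and 1 with a negative log2 fold change. The median was 0.36, and 0.11 when corrected for length, against 0.00 over all genes tested. A gene was called when it had an adjusted p (Benjamini-Hochberg) up to 0.05 in edgeR's quasi-likelihood test, differed by 1.5-fold or more, and reached a mean of 5 TPM in either group. By this rule 2 of the 10, *Pde10a* and *Pde3b*, were called and both were higher, where 0.796% of all tested genes were called in either direction and 0.211% as higher. In the quasi-likelihood test the adjusted p alone picked the same 2 genes, and 1.49% of all genes. It picked 3 of the 10 with the length correction, *Pde3a* among them (2.77% of all genes). With the likelihood ratio test it picked 5 (6.18% of all genes), and with DESeq2 also 5 (5.38%). *Pde10a* and *Pde3b* were also called with the length correction (0.935% of all genes), and *Pde4d* joined them in the likelihood ratio test (1.76% of all genes). All *Yap* cKO retinas were above all control retinas in TPM for 6 of the 10, as for 15.2% of all tested genes. Because the 10 were selected on this contrast, no inference is drawn from these shares.

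**Figure D2:**
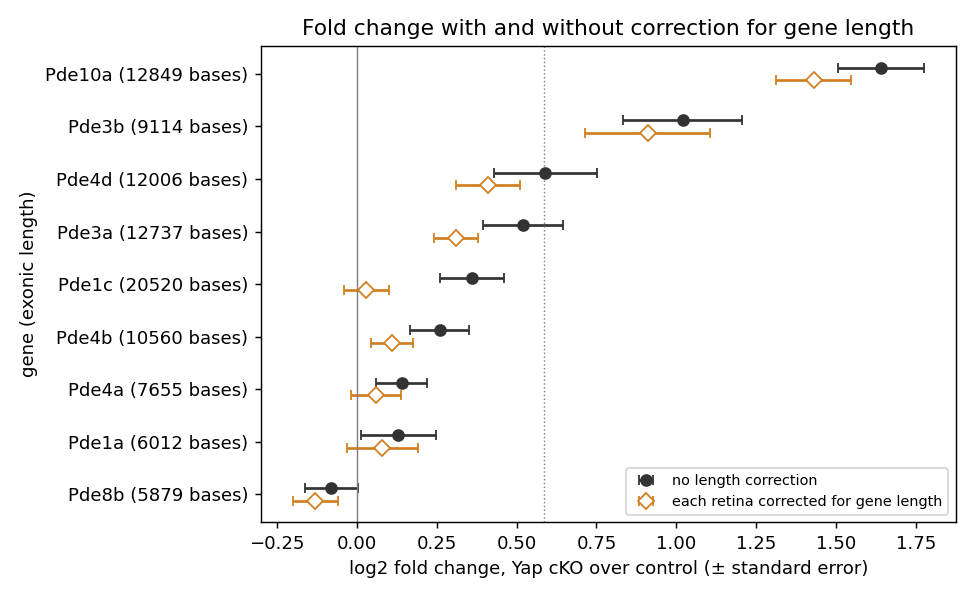
log2 fold change (*Yap* cKO over control, ± SE) of the 9 tested genes, without a correction for gene length (black circles) and with it (open diamonds). The dotted line marks a fold change of 1.5. *Pde10a* keeps a log2 fold change of 1.43 with the correction, while that of *Pde1c*, the longest gene, goes from 0.36 to 0.03.

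Most of the genes are long, and long genes as a whole had positive log2 fold changes here. In the tenth of tested genes with the longest exons (9602 bases or more), which holds 5 of the members, the median log2 fold change was 0.21, its 90th percentile 0.50, and 24.1% of the genes were higher without overlap. *Pde1c* and *Pde4b* were inside the range up to the 90th percentile of that group, *Pde3a* and *Pde4d* were just above it, and *Pde10a* was far above. *Pde3b* and *Pde4a* fell in the next group (7268 to 9600 bases), whose 90th percentile was 0.37. *Pde3b* lay above that value and *Pde4a* below it. *Pde1a* and *Pde8b*, the shortest of the 10, lay in groups with medians of 0.07 and 0.04. How much of each fold change goes with length was not tested beyond the corrected values.

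**Figure D3:**
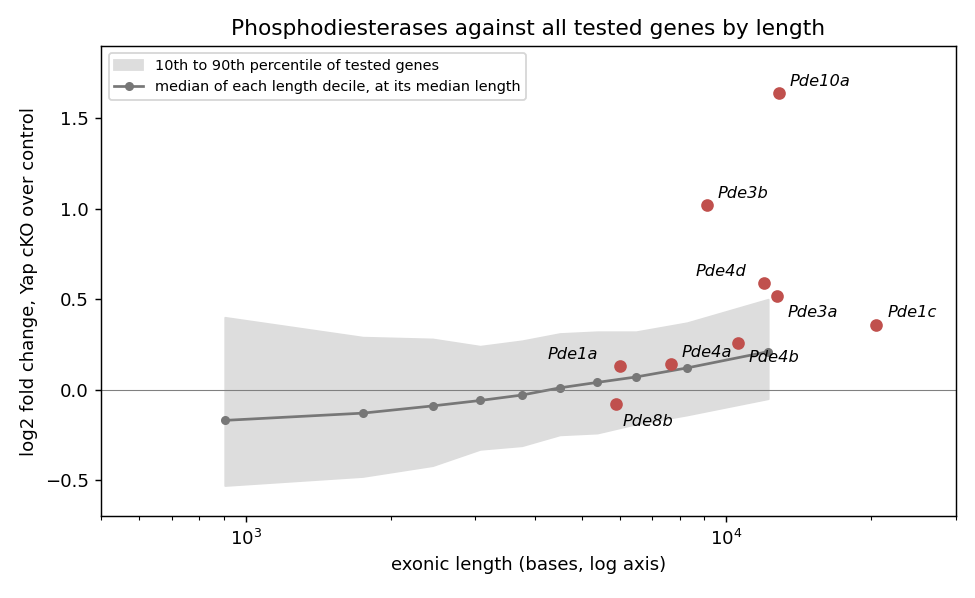
log2 fold change against exonic length (log axis) for the 9 tested members (red), with the median (line) and the 10th to 90th percentile (grey) of all tested genes in 10 groups of increasing length. The median rises from -0.17 to 0.21 with length, and *Pde10a* and *Pde3b* stand clear of the grey band.

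The order of the retinas differed between the members. For *Pde4d*, *Pde3a*, *Pde1c* and *Pde4b*, control YR613 and *Yap* cKO YR714 met in the middle. Relative to the mean of the 6 retinas, *Pde4d* was at -0.54, 0.06 and -0.43 (log2 CPM) in controls and 0.40, 0.45 and 0.06 in *Yap* cKO retinas. YR613 and YR714 are also the retinas between the others in their trend with gene length. *Pde10a*, at -0.94, -0.68 and -0.82 in controls and 0.63, 1.10 and 0.70 in *Yap* cKO retinas, kept YR613 with the controls and YR714 with the *Yap* cKO retinas. *Pde3b* was at -0.61, -0.45 and -0.41 against 0.03, 0.70 and 0.74, so that YR711 was the lowest *Yap* cKO retina, as it was for *Pde10a*. On this scale the groups of *Pde4a* touched, with YR612 and YR713 both at -0.02.

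**Figure D4:**
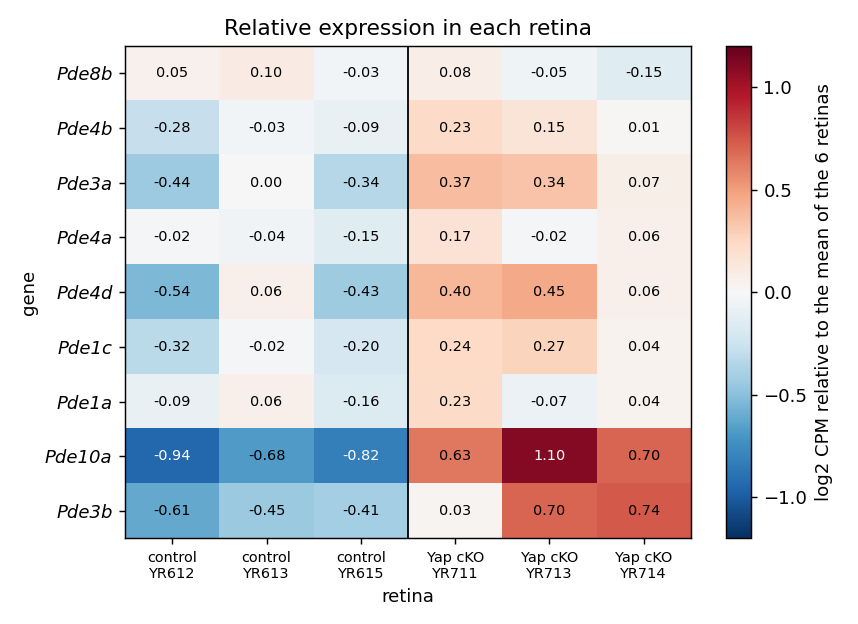
log2 CPM of the 9 tested genes in each retina, relative to the mean of the 6 retinas, with genes in the order of their control level and the groups divided by a line. *Pde10a*, *Pde3b*, *Pde1c* and *Pde4b* differ in sign between the groups in every retina, and *Pde3a*, *Pde4d*, *Pde1c* and *Pde4b* are near 0 in control YR613 and *Yap* cKO YR714.

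The distance between 2 profiles, as the root mean square difference of centred log2 CPM over the 6 retinas, was small between some genes in which YR613 and YR714 met in the middle. *Pde4d* and *Pde3a* were 0.076 apart and *Pde4d* and *Pde1c* 0.165, while *Pde10a* was 0.378 from *Pde3b* and 0.540 from *Pde4d*. *Pde3b* was about as far from *Pde3a* (0.394) and *Pde4d* (0.395) as from *Pde10a*. The 3 tested genes nearest to *Pde4d* were *Dmxl1* (0.030), *Hook3* (0.039) and *Ryr2* (0.044), which have 21923, 28486 and 28790 exonic bases. Those nearest to *Pde10a* were *Shc3* (0.235), 3425401B19Rik (0.268) and AC148021.1 (0.276), with 4654, 5572 and 1701 exonic bases. Of these, 3425401B19Rik and AC148021.1 were at only 0.62 and 0.647 TPM in controls. Those nearest to *Pde3b* were 5430419D17Rik (0.076), *Cdc25c* (0.079) and 2010001K21Rik (0.139), with 9202, 4919 and 3630 exonic bases. With 6 retinas and 16575 genes, near profiles are a description only.

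Summed over whole families, the enzymes of both substrates (8 genes, PDE1, 2, 3, 10 and 11) amounted to 129, 147 and 134 TPM in controls and 194, 190 and 175 TPM in *Yap* cKO retinas. The groups did not overlap, and the mean was 1.36 times as high (137 ± 9.40 against 186 ± 9.71 TPM). Of these 8 genes, 6 were chosen on this contrast, so the sum is given without a test. *Pde1b*, which was not among them, took up the largest part of it. The cAMP-specific enzymes (8 genes, PDE4, 7 and 8) overlapped between the groups, at 175 ± 15 and 198 ± 15.7 TPM, and 4 of them were chosen on this contrast. The cGMP-specific *Pde5a* and *Pde9a* together were at 18.7 ± 1.30 and 20.8 ± 2.16 TPM, in a sum without members that overlapped between the groups (exact permutation test, two-sided p = 0.3, where 3 against 3 retinas cannot go below 0.1). Both genes were left when the members were selected on this contrast, so this p is a description too.

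*Pde10a* made up 1.44, 1.6 and 1.58% of the summed TPM of all 18 genes in controls and 3.40, 4.89 and 3.94% in *Yap* cKO retinas. The mean share of *Pde3b* was 0.741% in controls and 1.29% in *Yap* cKO retinas and that of *Pde3a* 8.43% and 10.3%. *Pde8b* went the other way, from 16.6% to 13.4%. *Pde1b*, the largest single contributor, held 24.6% and 24%. Even in *Yap* cKO retinas, *Pde10a* thus remained a minor part of the summed TPM of these 18 genes, which leaves out PDE6. *Pde2a*, which may be counted too low, is part of these shares and of the sum for both substrates.

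Of the 8 other genes of these families, 7 were tested and 0 were called by edgeR's quasi-likelihood test, while 4 had an unadjusted p under 0.05, as did 21.4% of all tested genes. With edgeR's likelihood ratio test and with DESeq2, *Pde7b* alone passed the adjusted p (6.18% and 5.38% of all tested genes), without a call, and with limma-voom 0 did. Their median log2 fold change was 0.20, with 6 positive and 1 negative. Corrected for length it was 0.16, with 7 positive. The closest to the threshold was *Pde7b*, a cAMP-specific enzyme, at 4.66 ± 0.693 TPM in controls and 7.22 ± 0.785 TPM in *Yap* cKO retinas (log2 fold change 0.58 ± 0.122, adjusted p = 0.0539 in edgeR's quasi-likelihood test, and 0.38 with adjusted p = 0.112 when corrected for length). *Pde5a*, the cGMP-specific target of sildenafil, was at 4.46 ± 0.460 and 6.10 ± 0.824 TPM (log2 fold change 0.39 ± 0.12, 0.25 when corrected for length, edgeR adjusted p = 0.125).

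*Pde11a*, which accepts both substrates, was at 3.46 ± 1.21 and 5.14 ± 0.629 TPM (log2 fold change 0.52 ± 0.210, 0.49 when corrected for length, edgeR adjusted p = 0.201). *Pde1b*, the calcium and calmodulin-stimulated form of many neurons, was at 81.2 ± 0.163 and 97.0 ± 4.35 TPM (log2 fold change 0.20 ± 0.0717, 0.16 when corrected for length, edgeR adjusted p = 0.168). *Pde7a*, *Pde8a* and *Pde9a* had log2 fold changes of 0.19, 0.01 and -0.02, with edgeR adjusted p of 0.342, 0.948 and 0.933. *Pde4c*, at 0.160 TPM in controls and 0.192 TPM in *Yap* cKO retinas, did not pass the filter.

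The PDE6 genes of the photoreceptors had log2 fold changes close to 0. All 6 (*Pde6a*, *Pde6b*, *Pde6c*, *Pde6d*, *Pde6g* and *Pde6h*) were tested, with values between -0.11 and 0.04 and edgeR adjusted p between 0.540 and 0.953, and 0 were called or had an unadjusted p under 0.05, and 0 passed with the likelihood ratio test, DESeq2 or limma-voom. Their 3 catalytic genes summed to 4700 ± 498 TPM in controls and 4730 ± 331 TPM in *Yap* cKO retinas, many times the sum of the 18 others.

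A further 65 genes cover cyclic nucleotide synthesis, effectors and their inhibitors, anchoring of protein kinase A, the CREB pathway and export. Of these, 59 were tested. By edgeR's quasi-likelihood test 0 passed an adjusted p of 0.05 and 0 were called, although 27 had an unadjusted p under 0.05 (21.4% of all tested genes) and 49 had a positive log2 fold change (50.3% of all tested genes). Their median was 0.20. Corrected for length it was 0.12, with 48 positive, and 3 passed the adjusted p (2.77% of all tested genes), *Gucy1a2* and *Guca1a* among them, with 0 called. With the likelihood ratio test, 6 higher and 1 lower gene (*Rapgef3*) passed the adjusted p, and *Adcy9* was called, where 6.18% of all tested genes passed. With DESeq2, 6 and 1 passed as well, and *Adcy1* and *Adcy9* were called (1.59% of all tested genes), while with limma-voom 0 passed.

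Among the enzymes of synthesis, all 9 tested adenylyl cyclases had positive log2 fold changes (median 0.18, 0.15 when corrected for length) and 0 were called. The largest were those of *Adcy4* (0.65, from 0.780 to 1.24 TPM, edgeR adjusted p = 0.305) and *Adcy9* (0.59 ± 0.163, from 9.0 ± 2.05 to 14.1 ± 2.41 TPM, edgeR adjusted p = 0.102). *Adcy1*, a calcium-stimulated cyclase, was at 0.58 (111 to 173 TPM, edgeR adjusted p = 0.0904). Of the 10 tested guanylyl cyclases and their activators, 8 were positive (median 0.20, 0.22 when corrected for length). *Gucy1a2*, a subunit of the nitric oxide receptor, had the largest log2 fold change of these 59 genes (1.24 ± 0.355 to 2.77 ± 0.819 TPM, log2 fold change 1.10 ± 0.244, edgeR adjusted p = 0.0624). Corrected for length it was 1.04 with an edgeR adjusted p of 0.0384, but its TPM was under the minimum for a call. *Gucy2f*, a photoreceptor cyclase, was at 90.8 TPM in controls and 136 TPM in *Yap* cKO retinas (log2 fold change 0.53, edgeR adjusted p = 0.184).

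Among the effectors, 9 of 11 tested protein kinase A and G genes and inhibitors were positive (median 0.19, 0.12 when corrected for length), led by *Prkg2*, a cGMP-dependent kinase (0.35, edgeR adjusted p = 0.125), and *Prkar2b*, a regulatory subunit of protein kinase A (0.28, edgeR adjusted p = 0.204). The 9 other effectors divided into 5 positive and 4 negative values (median 0.16, 0.14 when corrected for length). *Rapgef3*, which encodes the cAMP-activated exchange factor EPAC1, was at 5.03 ± 0.108 and 3.68 ± 0.391 TPM (log2 fold change -0.51 ± 0.129, edgeR adjusted p = 0.0884).

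All 11 tested anchoring proteins of protein kinase A were positive (median 0.26), but 9 of 11 when corrected for length (median 0.12), with *Akap5* at 0.47 (edgeR adjusted p = 0.176) and *Akap11* at 0.42 (edgeR adjusted p = 0.156). Of the 7 regulators of the CREB pathway, 6 were positive (median 0.17), and 5 when corrected for length (median 0.03), the largest being *Crtc1* (0.29, edgeR adjusted p = 0.0893) and *Crebbp* (0.25, edgeR adjusted p = 0.278). The exporters *Abcc4* and *Abcc5* were at -0.25 and 0.20 (edgeR adjusted p = 0.392 and 0.221). By edgeR's quasi-likelihood test, 0 genes of these 7 lists were called.

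**Figure D5:**
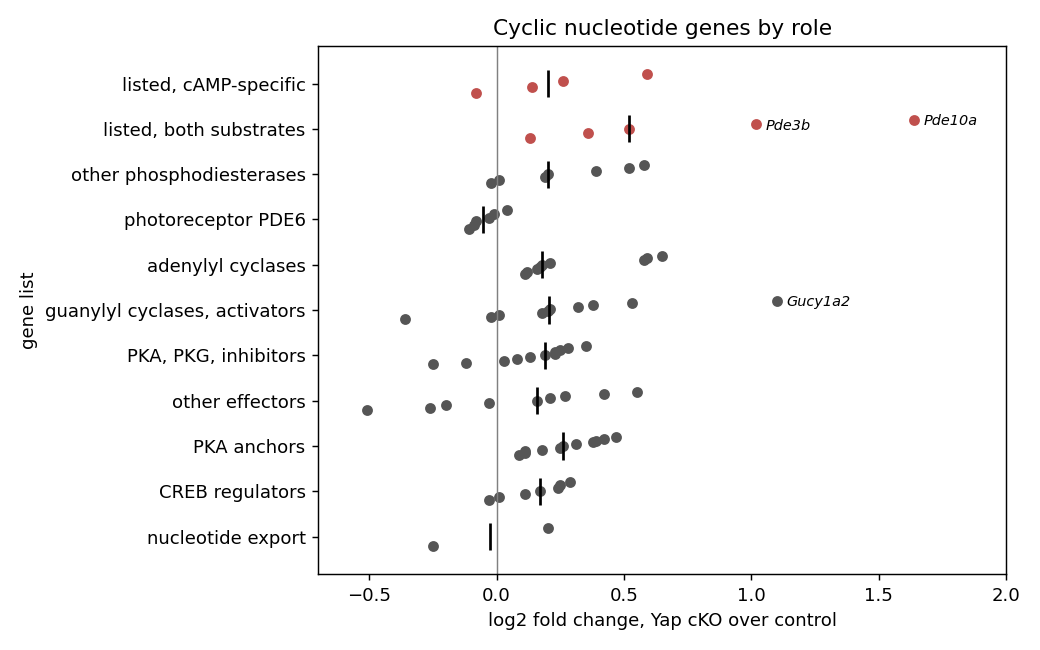
log2 fold change (*Yap* cKO over control) of each tested gene of cyclic nucleotide synthesis, breakdown, effectors and their inhibitors, anchoring of protein kinase A, the CREB pathway and export. Genes are grouped by role, with listed phosphodiesterases in red and a black line at the median of each list. *Pde10a*, *Pde3b* and *Gucy1a2* are the only genes beyond 0.9, and the PDE6 genes sit between -0.11 and 0.04.

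Markers of the cells that could carry these mRNAs were measured beside them. Those of amacrine cells summed to 665, 738 and 741 TPM in controls and 851, 794 and 828 TPM in *Yap* cKO retinas, 1.15 times as high on average. All 7 had a positive log2 fold change (50.3% of all tested genes) with 0 called. Corrected for length, 6 were positive and 1 negative (median 0.18). Those of horizontal cells were lower in *Yap* cKO retinas in their sum (244 to 262 against 204 to 238 TPM), although the median log2 fold change of the 5 was 0.42 and 0 were called. The sums for fibroblasts (10.8 to 13.1 against 7.80 to 10.8 TPM, 0 of 4 tested called) and striated muscle (14.5 to 15.3 against 9.59 to 13.0 TPM, 0 of 2 tested called) were lower. Those of Müller glia (5780 to 6230 against 5360 to 6030 TPM), bipolar cells (744 to 850 against 824 to 994 TPM) and pericytes and smooth muscle (104 to 109 against 92.0 to 120 TPM) overlapped, with 0 called by edgeR's quasi-likelihood test, although *Trpm1* of the bipolar list was called as higher by the likelihood ratio test and DESeq2. Markers of the retinal pigment epithelium ranged from 620 to 686 TPM in controls and 193 to 668 TPM in *Yap* cKO retinas. All 5 had a negative log2 fold change (median -0.70), and 0 of them were called over the 6 retinas. Without YR714, 4 were called as lower, where 448 of 16841 tested genes were called. Lens markers were at 1.2 to 14.2 TPM in controls and 0.143 to 3.16 TPM in *Yap* cKO retinas, with *Lim2* at 0 counts. The sums of the remaining lists, namely rods, cones, retinal ganglion cells, astrocytes, microglia, endothelium and ciliary non-pigmented epithelium, overlapped between the groups. *Aldh1l1* of the astrocyte list and *Optc* of the ciliary list were called as lower. The astrocyte list divided into 2 positive and 2 negative log2 fold changes (median -0.1). The 7 tested genes of the ciliary list went both ways, with 2 positive and 5 negative log2 fold changes (median -0.46). Of these, 6 had an unadjusted p under 0.05 in edgeR's quasi-likelihood test (21.4% of all tested genes). In the same test *Slc4a4* passed the adjusted p as higher, without a call. So did *Grm6* of the bipolar list, while *Col1a2* of the fibroblast list passed as lower, also without a call. An unadjusted p under 0.05 was found for 5 of 7 bipolar, 5 of 5 horizontal, 4 of 10 Müller and 3 of 7 amacrine markers. It was found for 0 of 7 rod and 0 of 7 ganglion cell markers. The bipolar list had 6 positive and 1 negative log2 fold changes, and the Müller list 4 positive and 6 negative. The part of any of these cells in the phosphodiesterase differences was not tested.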

How the data were processed

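Whole retinas were collected from 3 control and 3 *Yap* cKO mice, each a separate animal by its label. The authors built stranded mRNA libraries, mapped paired reads with STAR 2.7.3a to GRCm38 and counted fragments on exons with featureCounts 1.6.2 (strand setting 2, Ensembl release 98 in the header). The deposited values are raw counts per gene without normalization, beside the exonic length of each gene. Totals per retina ranged from 24261799 to 35067068, and counting error enters through the negative binomial model (common dispersion 0.0126).

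Genes were filtered with filterByExpr, scaled by TMM and tested with edgeR 4.0.16 (quasi-likelihood test, R 4.3.3, Benjamini-Hochberg adjustment over 16575 genes, no covariate). TPM was computed from counts and exonic length. The SE of a log2 fold change was derived from its F statistic. The length correction fitted a loess curve (span 0.3) of relative expression on length in each retina and entered it as offsets. Centred log2 CPM used a prior count of 2. Symbols were found for 55154 of 55421 identifiers. Promoter windows came from RefSeq (GRCm38.p6), and *Pde3a* and *Pde3b* were without one. Alternatives covered other size factors, tests (edgeR likelihood ratio, DESeq2 1.42.0, limma-voom 3.58.1), filters, a TPM minimum of 1, length offsets, sex as a covariate and each retina left out. Sex was inferred from the *Xist* and *Ddx3y* counts of each retina, not from the labels. The fits were tested on simulated data.

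The members and gene lists were chosen with earlier results of these data known. The text names every phosphodiesterase, any gene of the other cyclic nucleotide lists past the adjusted p, the 2 tested genes of each such list with the largest absolute log2 fold change, *Yap1*, and the 3 nearest profiles of *Pde10a*, *Pde3b* and *Pde4d*. PDE6 genes are given by range. The values of 1 gene that this rule names are not reported here.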

Additional observations from a re-analysis of the deposited data

How the results depend on the processing

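*Pde10a* was called under all 19 planned and 6 added settings. The number of the 10 phosphodiesterases called was 2, and lay between 1 and 4 with each retina left out: 4 without control YR613, 3 without *Yap* cKO YR714, and 1 when any of YR612, YR615 and YR713 was left out. With length offsets and each retina left out, chosen after seeing the data, it was 1 in 5 of 6 fits and 2 without *Yap* cKO YR711. Of the lists without a call, leaving out a retina gave 0 to 2 for the 8 other phosphodiesterases, 0 to 2 for adenylyl cyclases, 0 to 1 for guanylyl cyclases, 0 to 2 for the effectors beside the kinases and 0 to 1 for the anchors, with all calls in the fits without YR613 or YR714. Adenylyl cyclases reached 1 call with the likelihood ratio test, 2 with DESeq2 and 1 without the filter on low counts. Over all genes, 132 were called, against 291 (likelihood ratio test), 263 (DESeq2), 369 (no filter), 247 (adjusted p alone) and 38 to 516 with a retina left out (516 without YR613, 448 without YR714). The cause of these differences was not tested. No result changed direction in these settings among the called genes, and the substrate sums moved by less than their spread. No paired analysis was possible because the labels give animal codes and no number shared between the groups. With 3 retinas per group, small fold changes of genes at few counts, such as *Pde2a*, cannot be resolved.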

Other observations

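Genes beside the called phosphodiesterases were looked at after their values had been seen. Within 1 Mb of *Pde10a*, 42 other genes are listed and 10 were tested, and 0 passed an adjusted p of 0.05 in edgeR's quasi-likelihood test or its likelihood ratio test, with 1 at an unadjusted p under 0.05. Their log2 fold changes ran from -0.57 (*Fndc1*) to 0.37 (Gm49632), with a median of -0.05. Within 1 Mb of *Pde3b*, 31 are listed and 9 were tested, of which 0 passed in the quasi-likelihood test and 1 in the likelihood ratio test, with 2 at an unadjusted p under 0.05 and values from -0.59 (*Rras2*) to 0.39 (*Far1*) and a median of -0.02.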
